A study of Mus musculus with 12 samples.

Results

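Naive pluripotency rests on a circuit of transcription factors, and 8 of them were followed here through the step from mouse embryonic stem cells (ESCs) to epiblast-like cells (EpiLCs). They were Esrrb, Tfcp2l1, Zfp42, Nr0b1, Prdm14, Tbx3, Nanog and Nr5a2, chosen by name from the 51467 genes of the counts table. In total RNA and in nascent RNA alike, each of the 8 was lower in all EpiLC libraries than in any ESC library. Nanog kept 34.0% of its ESC level in total RNA and Zfp42 kept 6.02%, whereas the other 6 kept between 0.075% (Prdm14) and 1.61% (Esrrb). None of the 8 met the call for a change in mRNA stability in the fit reported, where 1.54% of the genes tested met it. Prdm14 met it in 7 of 24 alternative settings.

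In the inner cell mass and in ESCs factors of this circuit bind one another's genes, and the circuit holds the cell in a state from which every embryonic lineage can still be formed. LIF acts on the circuit through Stat3, and the kinase inhibitors of 2i act by blocking Mek and by blocking Gsk3, which relieves repression by Tcf7l1. When these supports are withdrawn the circuit is taken down as cells enter the formative state of the early post-implantation epiblast, while Pou5f1 is retained.

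ESCs were held in the naive state in serum medium by LIF together with 2i, which pairs a Mek inhibitor (PD0325901) with a Gsk3 inhibitor (CHIR99021). EpiLCs came from these ESCs and were collected about 56 hours after LIF and 2i were withdrawn. The labels give no genotype or line. According to the methods of the study, the differentiation used a single V6.5 ESC line that carries fluorescent reporters of the miR-290 and miR-302 microRNA clusters, so no result was checked in another line. Cultures of both cell types were exposed to 500 µM 4-thiouridine (4sU) for 30 min, which marks RNA made during the pulse, and the extracted RNA was split. One share was depleted of ribosomal RNA (total libraries) and the other was biotinylated and captured on streptavidin (4sU libraries, nascent RNA). Each cell type by assay gave a group of 3 libraries, 12 in all. The study calls its replicates biological, and the labels do not name the culture behind each library.

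Deposited counts summed to between 3097693 and 5385644 reads per 4sU library and between 9300845 and 21975684 per total library. Levels are given as CPM, read counts brought to a common library size with TMM scaling, and levels of different genes are compared as RPKM, which also divides by exonic length. The spike-in sequences in the table had 0 reads, so every level is relative to the other RNA of its library. In these bulk samples fewer cells with a transcript and less of it per cell cannot be told apart. The ESC libraries numbered 3 stood apart from numbers 1 and 2. The chi-square per degree of freedom between counts was 24.8 and 25.4 for the ESC total pairs with number 3, against 2.39 for the pair without it. The cell labels were checked against marker lists. Among 14 other naive genes 13 were called lower in EpiLC total RNA (limma-voom, adjusted p under 0.05 and absolute log2 change over 1). Among 14 formative and primed genes 8 were called higher, and 3 had a change below 0. Over all genes tested 11.2% were called lower and 16.3% higher.

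The 8 genes lie on 6 chromosomes (build mm10). Esrrb (ENSMUSG00000021255) is at chr12:86361117-86521628 on the plus strand, Tfcp2l1 (ENSMUSG00000026380) at chr1:118627946-118685168 on the plus strand, and Zfp42 (ENSMUSG00000051176) at chr8:43295063-43306980 on the minus strand. Nr0b1 (ENSMUSG00000025056) is at chrX:86191764-86195947 on the plus strand, and Prdm14 (ENSMUSG00000042414) is at chr1:13113457-13127163 on the minus strand. Tbx3 (ENSMUSG00000018604) is at chr5:119670669-119684724 on the plus strand, Nanog (ENSMUSG00000012396) at chr6:122707489-122714633 on the plus strand, and Nr5a2 (ENSMUSG00000026398) at chr1:136842571-136960448 on the minus strand. Reads were counted over exons only. Tfcp2l1 alone overlapped other annotated genes, a pseudogene on the opposite strand with 5 reads over the 12 libraries and a small nuclear RNA with 0 reads, against 67390 reads for Tfcp2l1 itself.

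RefSeq promoter windows (build GRCm38.p6, 250 bases before to 50 after the start) were matched by symbol for 6 of the 8 genes. The windows of Zfp42, Nanog and Esrrb printed here each had a match to any of 9 short motifs of pluripotency factors. They were also chosen because these genes fell by such different amounts. A link between a motif and a fall was not tested. Capitals mark the matches. Zfp42 (chr8:43306960-43307259, minus strand) has the octamer of POU factors such as Pou5f1 at -186 and a site of Kruppel-like factors, CCACACCC, at -75. Nanog (chr6:122707239-122707538, plus strand) has a joint Sox and POU site at -72. Esrrb (chr12:86360867-86361166, plus strand) has the spaced palindrome of Stat factors at -178. A second Esrrb window (chr12:86421394-86421693) had no match, and a second, overlapping Nanog window held the same joint site.
Zfp42: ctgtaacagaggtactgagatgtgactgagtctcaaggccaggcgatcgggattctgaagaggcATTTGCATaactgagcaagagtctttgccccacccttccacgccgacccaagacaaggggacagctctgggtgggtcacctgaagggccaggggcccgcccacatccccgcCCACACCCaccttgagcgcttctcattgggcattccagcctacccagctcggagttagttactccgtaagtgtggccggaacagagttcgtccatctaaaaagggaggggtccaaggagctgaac
Nanog: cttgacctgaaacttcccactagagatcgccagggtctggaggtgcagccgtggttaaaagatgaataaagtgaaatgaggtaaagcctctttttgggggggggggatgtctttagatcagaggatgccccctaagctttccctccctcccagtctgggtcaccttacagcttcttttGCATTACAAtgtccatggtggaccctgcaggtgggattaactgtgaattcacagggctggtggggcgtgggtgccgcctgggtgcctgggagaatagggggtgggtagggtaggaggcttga
Esrrb: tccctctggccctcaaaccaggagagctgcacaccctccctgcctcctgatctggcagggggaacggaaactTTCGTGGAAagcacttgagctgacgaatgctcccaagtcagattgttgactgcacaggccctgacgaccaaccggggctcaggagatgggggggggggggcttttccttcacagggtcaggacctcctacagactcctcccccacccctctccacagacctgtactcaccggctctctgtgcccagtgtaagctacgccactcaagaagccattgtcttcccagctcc

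Each motif was searched on both strands in 32851 promoter windows of the same length. The joint site TTGTNATGC, whose last bases are part of the octamer read on the other strand, was in 0.731% of windows, the octamer ATTTGCAT in 1.74%, the Kruppel-like site GGGTGTGG in 3.56% and the Stat site TTCNNNGAA in 8.3%. The windows of Nr0b1, Nr5a2 and Tfcp2l1 had no match to these 4 motifs. Nor did any of the 9 windows of the 6 genes match the nuclear receptor site AAGGTCA (4.72% of all windows), the Sox site CATTGTT (3.78%), the Tcf sites CTTTGAA (5.14%) and CTTTGAT (3.73%) or the T-box site AGGTGTGA (1.28%). The motif list was drawn up with these sequences in view, and a match is a string of letters, not a measured binding site.

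Esrrb is an orphan nuclear receptor and a known target of Tcf7l1 repression. In total RNA it stood at 579, 586 and 414 CPM in the ESC libraries and at 9.37, 7.68 and 8.35 CPM in the EpiLC libraries. In 4sU RNA the ESC libraries held 847, 855 and 595 CPM and the EpiLC libraries 16.3, 13.1 and 10.7 CPM. In both assays ESC number 3 was the lowest of its group, yet it stayed far above every EpiLC library. The log2 change was -5.95 ± 0.24 (SE) in total RNA and -5.82 ± 0.28 in 4sU RNA (limma-voom, adjusted p = 7.35e-11 and 1.39e-09).

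Nr5a2, also called Lrh1, is an orphan nuclear receptor that shares binding sites with Esrrb in ESCs. In total RNA its ESC libraries held 87.9, 86.7 and 86.1 CPM, with the smallest coefficient of variation of the 8 genes in ESC total RNA (1.04%), and its EpiLC libraries held 1.12, 1.71 and 1.19 CPM. In 4sU RNA it stood at 248, 250 and 195 CPM in ESCs and at 1.65, 3.39 and 2.67 CPM in EpiLCs. The ESC level was thus higher in nascent than in total RNA on the CPM scale, and the EpiLC values rested on 7 to 18 reads per library. The log2 change was -5.98 ± 0.29 in total and -6.47 ± 0.32 in 4sU RNA (limma-voom, adjusted p = 4.39e-10 and 1.74e-09).

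Nr0b1, also called Dax1, is an unusual nuclear receptor that lacks the family's DNA-binding domain and acts as a corepressor. Its ESC total libraries held 141, 140 and 90.6 CPM and its EpiLC total libraries 0.893, 0.758 and 0.795 CPM. In 4sU RNA it stood at 173, 212 and 102.5 CPM in ESCs and at 0.707, 0.636 and 0.297 CPM in EpiLCs. The EpiLC values come from 8 reads in each total library and from 3, 3 and 1 reads in the 4sU libraries. Summed over libraries and scaled for depth, the 4sU level was 300-fold lower in EpiLCs, with an exact 95% counting interval of 145 to 746. The fitted log2 change was -7.15 ± 0.73 in total RNA and -7.90 ± 1.06 in 4sU RNA (limma-voom, adjusted p = 8.18e-07 and 2.64e-05).

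Nanog is the homeodomain protein of the circuit, and it was the member with the smallest fall. Its ESC total libraries held 732, 808 and 828 CPM and its EpiLC total libraries 270, 266 and 268 CPM. In 4sU RNA the values were 1018, 1195 and 856 CPM in ESCs and 367, 288 and 312 CPM in EpiLCs. The groups did not overlap in either assay, and at 118.8 to 120.5 RPKM the EpiLC total level was still above 96.0% of the genes tested. The log2 change was -1.55 ± 0.11 in total and -1.67 ± 0.11 in 4sU RNA (limma-voom, adjusted p = 1.58e-08 and 4.72e-08).

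Tbx3 is a T-box factor that also acts in limb and heart development. In total RNA it stood at 276, 279 and 255 CPM in ESCs and at 3.91, 2.84 and 2.88 CPM in EpiLCs. In 4sU RNA its ESC libraries held 1094, 1249 and 914 CPM and its EpiLC libraries 12.02, 7.21 and 8.90 CPM. Every 4sU value exceeded every total value of the same cell type. The log2 change was -6.40 ± 0.25 in total and -6.87 ± 0.23 in 4sU RNA (limma-voom, adjusted p = 5.13e-11 and 5.97e-11).

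Tfcp2l1 belongs to the CP2 family and is a known target of Stat3. Its ESC total libraries held 1115, 1030 and 1475 CPM and its EpiLC total libraries 16.5, 12.9 and 14.7 CPM. In 4sU RNA it stood at 1006, 847 and 656 CPM in ESCs and at 12.3, 15.5 and 13.7 CPM in EpiLCs. ESC number 3 was the highest of its group in total RNA and the lowest in 4sU RNA. The log2 change was -6.34 ± 0.20 in total and -5.89 ± 0.28 in 4sU RNA (limma-voom, adjusted p = 9.61e-12 and 1.36e-09).

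Zfp42, better known as Rex1, is a zinc finger protein related to Yy1 and a standard reporter gene for the naive state. Its ESC total libraries held 378, 405 and 393 CPM and its EpiLC total libraries 23.1, 22.9 and 24.8 CPM. In 4sU RNA the values were 415, 394 and 360 CPM in ESCs and 16.7, 16.1 and 16.9 CPM in EpiLCs. Replicates lay close together in all 4 groups, with coefficients of variation of 2.55% to 7.07%. The log2 change was -4.05 ± 0.08 in total and -4.55 ± 0.12 in 4sU RNA (limma-voom, adjusted p = 4.16e-13 and 1.05e-11).

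Prdm14 is a PR-domain protein that restrains FGF signalling and the DNA methyltransferases, and it is used again in germ cells. Its ESC total libraries held 36.5, 40.4 and 49.5 CPM (629, 803 and 503 reads), while the EpiLC total libraries held 0, 1 and 0 reads. In 4sU RNA the ESC libraries held 23.7, 23.6 and 29.0 CPM (116, 132 and 107 reads) and the EpiLC libraries 1, 1 and 0 reads. In the libraries with 0 reads the limit of 3 reads allows levels of up to 0.335 and 0.298 CPM in total and 0.89 CPM in 4sU RNA. By summed reads the EpiLC level was 1210-fold lower in total RNA (exact 95% counting interval 217 to 47800) and 155-fold lower in 4sU RNA (42.5 to 1280). These intervals cover counting error only, since the reads carry no molecular identifiers. The fitted log2 change was -9.14 ± 0.56 in total and -6.62 ± 0.57 in 4sU RNA (limma-voom, adjusted p = 4.37e-09 and 3.91e-07), and it depends on how the model treats counts near 0.

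**Figure D1:**
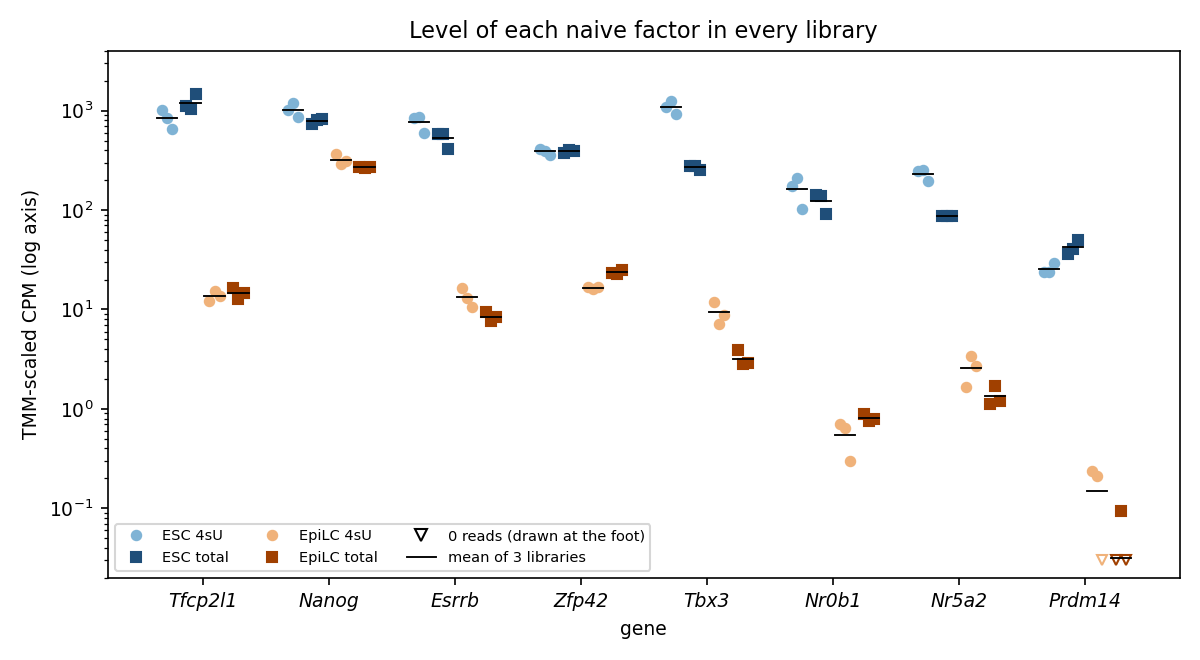
TMM-scaled CPM (log axis) of the 8 naive factors in each of the 12 libraries, coloured by group, with a line at each group's mean and open triangles for libraries with 0 reads. The EpiLC points lie below all ESC points of the same gene, with the smallest gap for Nanog (mean 268 against 789 CPM in total RNA) and at most 1 read per EpiLC library for Prdm14.

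Both comparisons of cell type asked how far the naive factors fell as ESCs became EpiLCs, once in steady-state and once in newly made RNA. All 8 of 8 were called lower in total RNA (limma-voom, adjusted p under 0.05 and absolute log2 change over 1), where 11.2% of the 14731 genes tested were called lower and 16.3% higher. All 8 were also called lower in 4sU RNA, where 13.5% of genes were called lower and 11.9% higher. The median log2 change of the 8 was -6.16 in total and -6.18 in 4sU RNA, beside 0.02 and -0.09 over all genes tested. By fitted fall among all genes tested, Prdm14 ranked 3 in total and 21 in 4sU RNA, and Nr0b1 ranked 20 and 4. The EpiLC reads behind these ranks were 1 and 2 for Prdm14 and 24 and 7 for Nr0b1. The ranks thus depend in part on how the model treats counts near 0. Prdm14, Nr0b1 and Nr5a2 passed the expression filter (3 CPM or more in 3 or more libraries) only through the ESC libraries. Without both ESC number 3 libraries all 8 were again called lower in both assays, at -9.05 (Prdm14) to -1.53 (Nanog) in total RNA and -8.22 (Nr0b1) to -1.81 (Nanog) in 4sU RNA.

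The falls lay in 3 separate ranges. In total RNA the 95% interval of the log2 change was -1.78 to -1.32 for Nanog and -4.23 to -3.87 for Zfp42, and Esrrb, the next in order, had an interval of -6.46 to -5.44. The 6 genes from Esrrb to Prdm14 had intervals that overlapped from each gene to the next. The interval of Prdm14 (-10.3 to -7.94) overlapped that of Nr0b1 (-8.72 to -5.59) but lay below those of Tbx3 (-6.93 to -5.87), Tfcp2l1, Nr5a2 and Esrrb. In 4sU RNA the same gaps stood between Nanog (-1.91 to -1.42), Zfp42 (-4.80 to -4.29) and Esrrb (-6.42 to -5.21).

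**Figure D2:**
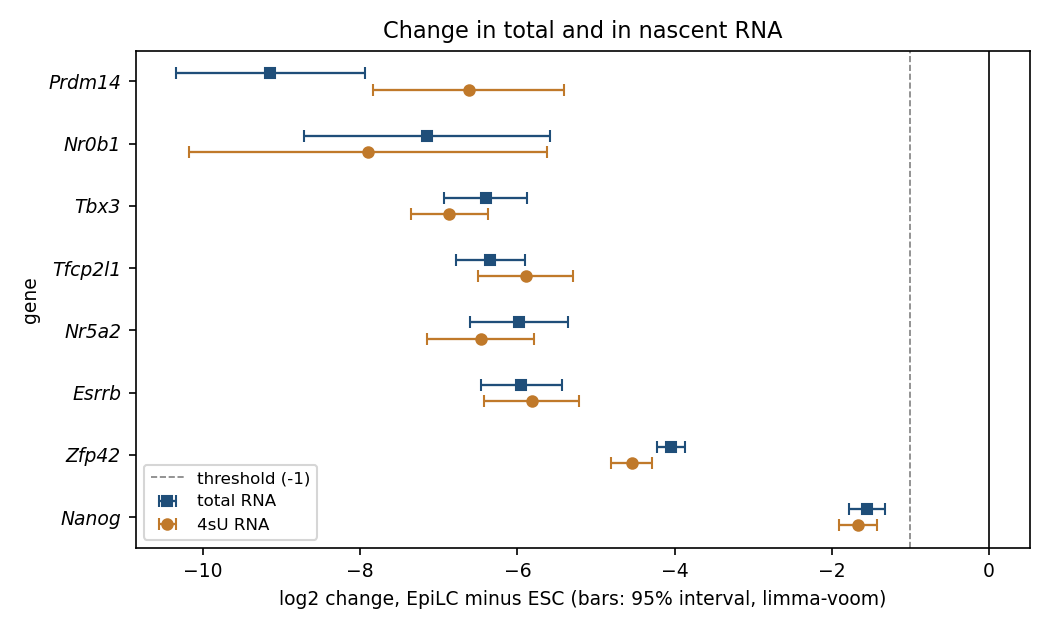
Log2 change (EpiLC minus ESC) of each factor in total RNA (squares) and in 4sU RNA (circles), with 95% intervals from limma-voom and the threshold of -1 as a dashed line. Nanog (-1.55 and -1.67) and Zfp42 (-4.05 and -4.55) stand apart from the other 6, whose estimates lie between -5.82 and -9.14.

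The unequal falls also showed as ratios within a library, from which the library's scaling cancels. The RPKM ratio of Nanog to Zfp42 was 1.62, 1.67 and 1.77 in the ESC total libraries and 9.81, 9.75 and 9.10 in the EpiLC total libraries, 5.66 times higher on average. In 4sU RNA the ratio was 2.06, 2.55 and 2.00 in ESCs and 18.4, 15.0 and 15.5 in EpiLCs, 7.40 times higher. Zfp42, which fell less than Esrrb, showed the same pattern against it. The RPKM ratio of Zfp42 to Esrrb was 1.95, 2.07 and 2.84 in ESC and 7.37, 8.94 and 8.87 in EpiLC total RNA, and 1.46, 1.38 and 1.81 in ESC and 3.08, 3.67 and 4.73 in EpiLC 4sU RNA. The groups did not overlap for any of these ratios, and each gave p = 0.1 in a two-sided exact permutation test, the smallest that 3 against 3 libraries allow (7 ratios computed, adjusted p = 0.1).

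The order of the levels per length in ESC total RNA was led by Nanog at 352 ± 22.6 RPKM (SD, n = 3) and Zfp42 at 208 ± 7.19, followed by Tfcp2l1 at 130 ± 25.5. Esrrb (93.5 ± 17.3), Nr0b1 (68.4 ± 15.8) and Tbx3 (51.9 ± 2.57) came next, and each of these overlapped its neighbour in range. Prdm14 (16.4 ± 2.60) and Nr5a2 (15.6 ± 0.16) came last and overlapped too. So the factor with the largest fitted fall was already among the least abundant in ESCs, above 66.3% of the genes tested, while Nanog was above 99.0%.

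In ESC 4sU RNA the order was different. Nanog again led at 456 ± 75.7 RPKM, but Tbx3 came next at 209 ± 32.2 and overlapped Zfp42 at 207 ± 14.7. Esrrb (136 ± 26.3), Tfcp2l1 (90.3 ± 18.9) and Nr0b1 (89.9 ± 30.7) overlapped in range from each to the next, and Nr5a2 (41.4 ± 5.55) and Prdm14 (9.93 ± 1.20) stood apart below them. The RPKM ratio of Tbx3 to Tfcp2l1 was 1.94, 2.62 and 2.48 in the ESC 4sU libraries and 0.441, 0.482 and 0.307 in the ESC total libraries, with no overlap (two-sided exact permutation p = 0.1, the smallest possible). That test treated the libraries as independent although extracts were split between the assays, so the p takes no account of shared cultures.

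In EpiLC total RNA Nanog (120 ± 0.82 RPKM) and Zfp42 (12.5 ± 0.54) again led with separate ranges. Tfcp2l1 (1.59 ± 0.20) and Esrrb (1.51 ± 0.15) overlapped, and Tbx3 (0.617 ± 0.116), Nr0b1 (0.451 ± 0.038) and Nr5a2 (0.240 ± 0.058) followed in separate ranges above Prdm14. In EpiLC 4sU RNA Nanog (144 ± 18.1 RPKM) and Zfp42 (8.82 ± 0.22) led as well. Esrrb (2.38 ± 0.50), Tbx3 (1.80 ± 0.47) and Tfcp2l1 (1.49 ± 0.17) overlapped in turn, and so did Nr5a2 (0.461 ± 0.157) and Nr0b1 (0.302 ± 0.121). Zfp42 was above 61.4% of genes tested in EpiLC total RNA, so its transcript remained readily measured after the fall.

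Relative mRNA stability was taken as log2 of total over 4sU CPM between same-numbered libraries of a cell type. The matching by number is a description, since no source says that a number marks one extract. The value has no absolute scale, and its median over all genes tested was 0.03 in ESCs and 0.15 in EpiLCs. In ESCs Tbx3 had the lowest value of the 8 at -2.00 ± 0.16 (SD, n = 3), lower than all but 16.5% of genes by the fitted value, and Nr5a2 followed at -1.40 ± 0.19. Esrrb (-0.54 ± 0.01), Nanog (-0.36 ± 0.28) and Nr0b1 (-0.36 ± 0.22) overlapped in range, and Zfp42 lay near the median at 0.01 ± 0.13. Tfcp2l1 (0.53 ± 0.55) and Prdm14 (0.72 ± 0.09) were at the top and overlapped. The Tfcp2l1 value leaned on ESC number 3, with 0.15, 0.28 and 1.17 in the 3 pairs, and the fitted value moved from 0.52 to 0.19 without both number 3 libraries.

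In EpiLCs Tbx3 (-1.53 ± 0.16) and Nr5a2 (-0.91 ± 0.31) again had the lowest means of the 7 factors with a ratio in each pair, but Nr5a2 overlapped Esrrb (-0.64 ± 0.25). Nanog stood at -0.26 ± 0.17, Tfcp2l1 at 0.09 ± 0.35 and Zfp42 at 0.51 ± 0.04. Nr0b1 gave 0.34, 0.25 and 1.42, from at most 8 reads per library, and Prdm14 could not be given per pair because of libraries with 0 reads. Its fitted EpiLC value was -1.80 ± 0.79 (SE), from 1 total and 2 nascent reads.

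**Figure D3:**
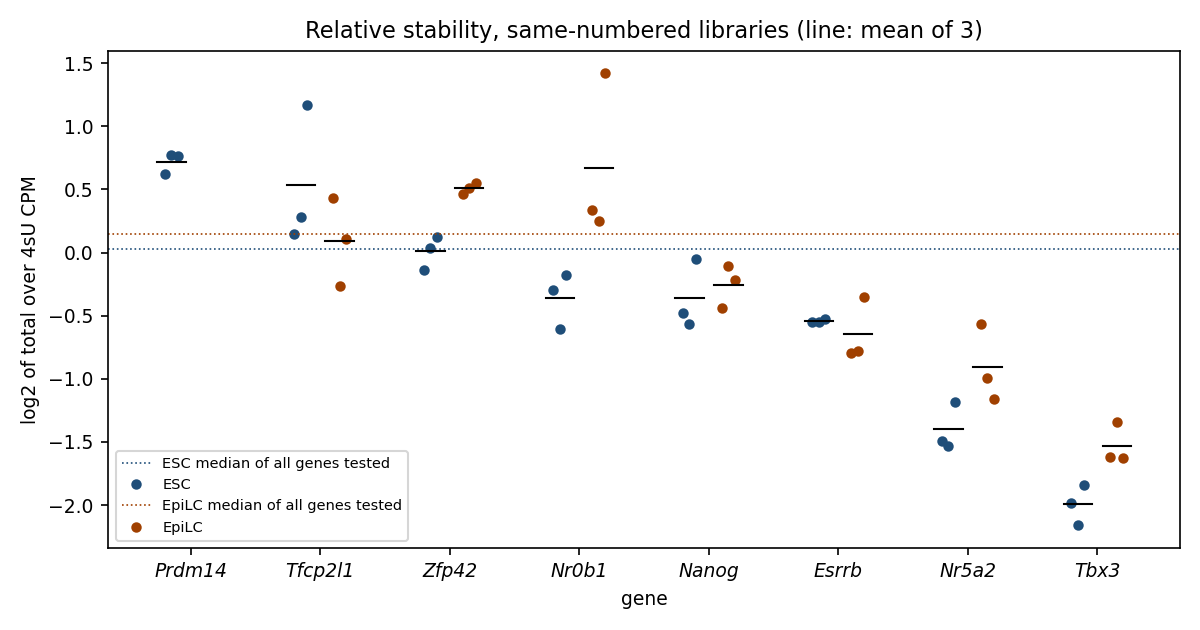
Relative stability (log2 of total over 4sU CPM) of each factor in the 3 same-numbered pairs of ESC and EpiLC libraries, with a line at each mean and dotted lines at the medians of all genes tested (0.03 and 0.15). Tbx3 and Nr5a2 have the lowest means among the genes plotted in each cell type, and in EpiLCs Nr5a2 overlaps Esrrb; Prdm14 has no EpiLC points because libraries with 0 reads give no ratio.

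Whether stability itself differed between cell types was tested as the interaction, the change in total RNA minus the change in 4sU RNA. None of the 8 factors was called (limma-voom), where 1.54% of genes were called in either direction, 0.305% lower and 1.24% higher. Neither edgeR's quasi-likelihood test nor DESeq2 called any of them, and 2 had an unadjusted p under 0.05. These were Zfp42, with a stability change of 0.50 ± 0.15 (SE, adjusted p = 0.0659), and Prdm14, with -2.52 ± 0.80 (adjusted p = 0.0824). For the other 6 the adjusted p was 0.437 to 0.873.

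The intervals show what these data could and could not resolve. The 95% interval of the stability change was -0.22 to 0.45 for Nanog and 0.18 to 0.81 for Zfp42, both inside 1 on the log2 scale. For Nr0b1 it was -2.02 to 3.51, so its sign was not resolved. The SE of the Nr0b1 value was 1.29, and 0.55 without both ESC number 3 libraries. The intervals of Esrrb (-0.93 to 0.66), Tfcp2l1 (-1.19 to 0.29), Tbx3 (-0.25 to 1.19) and Nr5a2 (-0.44 to 1.42) lay between these. The Prdm14 value rests on 1 total read and 2 nascent reads over the 6 EpiLC libraries. It was called in 7 of 24 alternative settings (adjusted p of 0.0098 to 0.0444), among them each fit that blocked on the library number. Others were the fits without ESC total number 3 (-2.42, adjusted p = 0.0249) and without both ESC number 3 libraries (-2.48, adjusted p = 0.0098). Prdm14 was not called by edgeR (adjusted p = 0.289) or DESeq2 (adjusted p = 0.247). Zfp42 passed the adjusted p alone in 6 of 24 settings, always with a change under 1.

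The ESC replicates differed among themselves most for Nr0b1, whose coefficient of variation was 34.2% in 4sU and 23.1% in total RNA. Number 3 was at 0.532 (4sU) and 0.646 (total) of the mean of numbers 1 and 2 for Nr0b1, and at 0.699 and 0.711 for Esrrb. Prdm14 went the other way, at 1.23 and 1.29. In 4sU RNA number 3 was the lowest ESC library for 7 of the 8 factors, while in total RNA it was lowest for 4 and highest for 3. Among the EpiLC libraries number 3 lay between the other two for 6 of the 7 factors with a read in each total library, and for 4 of 7 in 4sU RNA.

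Relatives by protein family served as a comparison, with none listed for Nanog. Of 11 listed relatives 6 passed the expression filter, and none was called in total or 4sU RNA by limma-voom, edgeR or DESeq2. In each assay 3 had an unadjusted p under 0.05. The limma-voom adjusted p was under 0.05 for Tfcp2 (0.00415) and Esrra (0.00598) in total RNA and for Yy1 (0.0441) in 4sU RNA. None of these passed the fold threshold. Background was 27.6% called in either direction in total and 25.5% in 4sU RNA. Esrra, the ubiquitous relative of Esrrb, averaged 26.4 CPM in ESC and 20.9 CPM in EpiLC total RNA (log2 change -0.35 ± 0.10). Tfcp2, the CP2 factor closest to Tfcp2l1, had 30.6 and 22.9 CPM (-0.41 ± 0.11), and its relative Ubp1 had 150 and 168 CPM (0.16 ± 0.07). Yy1, the relative of Zfp42, had 142 and 162 CPM (0.19 ± 0.08). The PR-domain genes Prdm1 and Prdm4 had 14.6 and 11.9 CPM (-0.30 ± 0.25) and 63.3 and 69.8 CPM (0.14 ± 0.07). Esrrg, Yy2, Nr0b2, Tbx2 and Nr5a1 were below the filter. The comparison thus covered Esrrb, Tfcp2l1, Zfp42 and Prdm14, and no listed relative of Nr0b1, Tbx3 or Nr5a2 was tested. Esrrg had 3 reads over the ESC total and 27 over the EpiLC total libraries, and Nr5a1 had 1 and 12. With no expression filter 2 relatives were called higher in total and 1 in 4sU RNA, and with a filter of 1 CPM 1 was called higher in each.

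Among the 14 other naive genes, which include Kruppel-like factors and targets of the circuit, 13 were called lower in total and 13 in 4sU RNA. The median log2 change was -3.13 in total and -3.25 in 4sU RNA. Jam2, a junction adhesion molecule, fell by 8.14 on the log2 scale, and Tcl1, a coactivator of Akt kinase, fell by 7.56. Dppa3 was not called, with 5.04 and 4.71 CPM in total RNA. Socs3, the feedback inhibitor of LIF signalling, was the 1 gene of this list called in the stability interaction (-1.44 ± 0.19, limma-voom, adjusted p = 0.00189).

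Of the 5 core pluripotency genes tested, Sox2 was called lower (-3.55 ± 0.21) and Lin28a higher (1.80 ± 0.35) in total RNA. Pou5f1, the factor that pluripotent cells of both states share, went from 935 ± 15.9 to 550 ± 4.54 CPM in total RNA (-0.77 ± 0.09) and from 154 ± 29.9 to 186 ± 9.11 CPM in 4sU RNA (0.28 ± 0.11), neither past the fold threshold. It was called in the stability interaction (-1.05 ± 0.15, limma-voom, adjusted p = 0.00256), just past the fold threshold. That call was lost with library totals alone as the scaling, without ESC 4sU number 3, and without both ESC number 3 libraries.

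Among 14 formative and primed genes 8 were called higher in each assay and none lower by limma-voom, edgeR or DESeq2, with a median of 1.20 in total RNA. Fgf5, a growth factor of the early post-implantation epiblast, went from 0.11 to 43.6 CPM in total RNA, and Otx2, the homeodomain factor that drives the formative state, from 3.72 to 59.6 CPM (4.21 ± 0.22). Fgf5 passed the expression filter only through EpiLC libraries. Of 12 regulators of the circuit 3 were called lower and 1 higher in total RNA, beside 11.2% and 16.3% of all genes tested. The higher call, Tcf7l1 (1.09 ± 0.18), was lost in DESeq2 and without ESC total number 1 or number 2. Lifr, the LIF receptor, fell by 2.80 and Ncoa3, a coactivator of Esrrb, by 1.29 on the log2 scale.

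**Figure D4:**
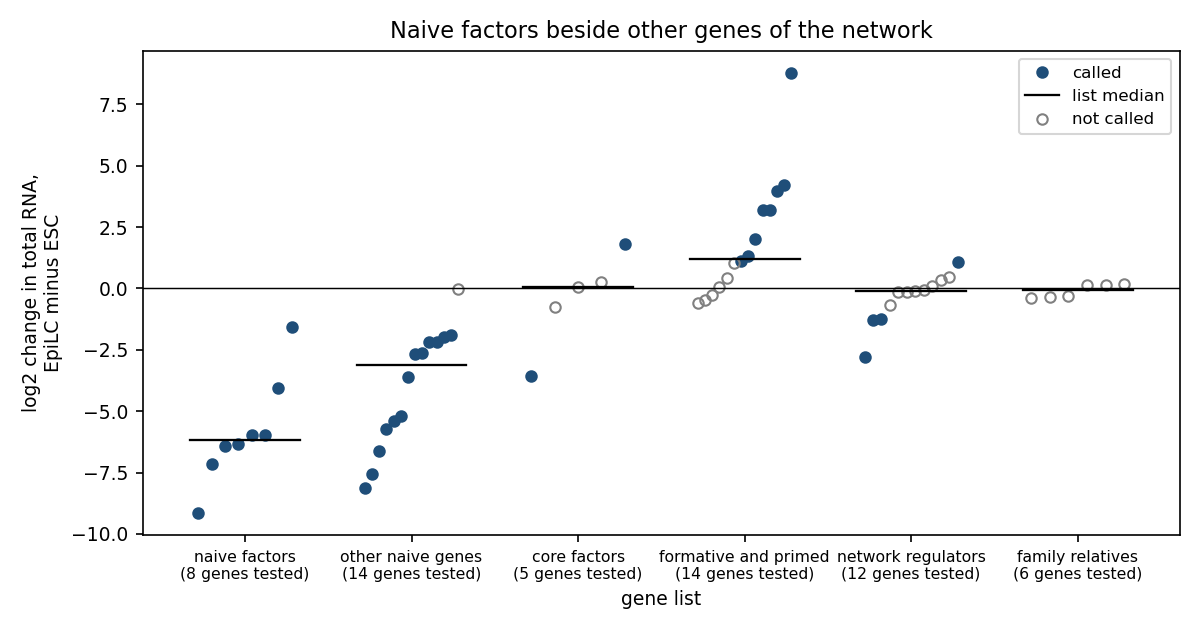
Log2 change in total RNA (EpiLC minus ESC) of each tested gene in 6 lists, filled where called and open where not, with a line at the list median. The naive factors (median -6.16) and other naive genes (median -3.13) lie below 0, and the 6 family relatives lie between -0.41 and 0.19.

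The genes whose pattern over the 12 libraries was most like that of each factor were found by Pearson correlation of log2(CPM + 1) among 9484 protein-coding genes averaging 10 CPM or more. Every such r is set mainly by the gap between the ESC and EpiLC libraries and is given as a description. Esrrb was most like Sh2d4b (r = 0.997), Mreg and Jam2, and Nr5a2 most like H2-M5 (0.997), Irak3 and Zfp57. Tbx3 was most like Zfp57 (0.997), 2410137M14Rik and Gna13, so Tbx3 and Nr5a2 shared Zfp57, the zinc finger protein that protects methylation at imprinted regions. Tfcp2l1 was most like AU018091 (0.996), Inpp5d and Mtf2, and Prdm14 most like Nfatc2ip (0.995), Phf11d and Mitf. Zfp42 was most like Ildr1 (0.996), Tns3 and Mymx, and Nr0b1 most like Lrrc31 (0.997), Ubd and Mymx. Nanog had the lowest best match, Zyg11a at 0.992, followed by 2410137M14Rik and Jarid2, a partner of Polycomb. Between the factors themselves r ran from 0.940 (Tbx3 and Prdm14) to 0.995 (Prdm14 and Tfcp2l1).

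Markers of other cell types were read in the same libraries. The background for each list is the 16.3% of genes tested that were called higher and the 11.2% called lower in total RNA. Summed over the 8 fibroblast genes the level was 11.3 to 15.5 CPM in ESC total and 16.3 to 20.8 CPM in EpiLC total libraries, and 7.87 to 9.76 CPM in ESC and 6.36 to 6.83 CPM in EpiLC 4sU libraries. Of these, 4 were tested in total RNA, with Dcn and Col1a2 called higher and Pdgfrb lower. Lum and Postn had at most 1 read in any group. Dcn had 0 reads in all 6 ESC libraries, where 3 reads equal 0.151 to 0.295 CPM in total RNA, and 4.81 ± 0.44 CPM in EpiLC total RNA. It was called in the stability interaction by limma-voom (3.22 ± 0.64, adjusted p = 0.015) but not by edgeR or DESeq2. With 0 ESC reads Dcn has no measured ratio of total to 4sU RNA in ESCs. The fitted value depends on how the model treats counts of 0, so neither a change in stability nor its absence can be read from it. Dcn and Col1a2 passed the expression filter only through the EpiLC total libraries. When any 1 of these was left out both genes missed the filter and were not tested. The part of fibroblasts in the fall of the naive factors was not tested. Of 4 primitive endoderm genes tested in total RNA, Dab2 (4.87 ± 0.48) and Gata4 were called higher and Sox17 lower (-4.13 ± 0.58). DESeq2 called only 1 of the higher genes, as did the fit without ESC total number 1. Without any 1 ESC 4sU library or both ESC number 3 libraries, Sox17 missed the expression filter and was not tested. Gata6, Sox7 and Foxa2 were below the filter. From ESC to EpiLC total RNA Gata6 went from 0.458 to 0.168 CPM, Sox7 from 0.0663 to 0.339 and Foxa2 from 0.22 to 0.322. Of 3 mesendoderm genes tested, Mixl1 (2.51 ± 0.33) and T (2.35 ± 0.63) were called higher. Eomes was not called, at 16.9 CPM in ESC and 14.8 CPM in EpiLC total RNA. Gsc, below the filter, went from 4.1 to 0.991 CPM. When any 1 EpiLC 4sU library was left out, Mixl1 missed the filter and was not tested. The neural factor Pax6 (5.41 ± 0.45) was called higher. Dab2, T and Pax6 averaged 0.648, 1.67 and 0.222 CPM in ESC total RNA, and 1.17, 0.971 and 0.714 CPM in ESC 4sU RNA. These genes passed the expression filter only through EpiLC libraries, so the filter favoured a higher call. Of 2 tested markers of cells like the 2-cell embryo, neither was called by limma-voom, edgeR or DESeq2, and 1 had an unadjusted p under 0.05. Summed over each list, total libraries of ESCs and EpiLCs held 5.1 to 12 and 18.6 to 21.3 CPM of primitive endoderm genes, 17.2 to 28.1 and 20.5 to 31.1 CPM of mesendoderm genes, and 10.8 to 18 and 26 to 33 CPM of neural genes. Of 5 germ cell genes, where Prdm14 also acts, Tfap2c fell by 3.35 and Dazl by 1.35 on the log2 scale, while Ddx4 rose by 2.02.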

How the data were processed

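RNA of ESCs and EpiLCs was sequenced as 4sU-captured and as rRNA-depleted total libraries, 3 per group. The deposited values are raw read counts per gene. Per the labels and the methods, the authors trimmed adapters with cutadapt 1.14, aligned single-end reads to mm10 with STAR 2.5.3a, keeping unique alignments, and counted strand-specific exonic reads on GENCODE M14 genes with featureCounts 1.5.3. Unique alignment drops reads shared with near-identical copies.

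A filter of 3 CPM or more in 3 or more libraries left 14731 genes. After the study's design, 1 limma-voom model of the 4 group means covered the 12 libraries (limma 3.58.1, TMM from edgeR 4.0.16, R 4.3.3), and p-values were adjusted by Benjamini-Hochberg over all genes kept. Calls needed an adjusted p under 0.05 and an absolute log2 change over 1. The stability change was the interaction of cell type and assay. Fits were tested on simulated data. Levels between genes used RPKM, from the deposited exon length in bases. Depth was 3097693 to 21975684 reads per library, and exact intervals cover counting error only. The 8 genes, the other lists, the motifs and the tests were chosen with earlier results of these data known. All 8 genes were named, with every tested relative, the 2 called genes of each other list with the largest total change, and any called in the interaction. Dppa3, Pdgfrb, Gata4, Gata6, Sox7, Foxa2, Dazl, Eomes and Gsc were named after their values were seen. Alternatives were other scalings, filters and thresholds, DESeq2 1.42.0 and edgeR's quasi-likelihood fit, library weights, blocks and left-out libraries. GENCODE M21 gave symbols for 51274 of 51467 gene IDs. Python 3.11.15, numpy 2.4.6, pandas 2.3.3 and scipy 1.17.1 were used.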

Additional observations from a re-analysis of the deposited data

How the results depend on the processing

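All 8 naive factors were called lower in total and in 4sU RNA under each of 25 alternatives. No factor was called in the stability interaction in the fit reported, and leaving out single libraries gave 0 to 1. The count was 1, Prdm14, with no expression filter, with sample quality weights, with both ESC number 3 libraries left out, and without ESC total replicate 3. With a replicate block, by number or by cell type and number (as a random or a fixed term), the count was also 1, with adjusted p of 0.0227, 0.0329 and 0.02 for Prdm14. The block changed no other call of the 8 factors. Same-numbered total and 4sU libraries had correlated deviations in ESCs (r = 0.163, 0.296 and 0.408) but hardly in EpiLCs (0.0747, 0.0295 and 0.0234), and ESC total 1 correlated better with 4sU number 2 (0.291), so no reported test used the numbers as pairs; relative stability is matched by number as a description.

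The stability change of Nanog, 0.11 in the fit reported, ran from -0.072 to 0.15 when single libraries were left out, and was negative without ESC 4sU replicate 2 and without ESC total replicate 1. Over the whole table the interaction called 45 genes lower and 182 higher, against 66 and 132 with median-of-ratios scaling, 28 and 253 with library totals alone, 108 and 738 with sample quality weights, 73 and 281, 80 and 405 and 90 and 438 with the 3 blocks, 99 and 680 without both ESC number 3 libraries, and 277 and 401 on the adjusted p alone. Leaving out 1 library gave 86 and 572 without ESC total replicate 3, but 21 to 61 lower and 39 to 87 higher without ESC total replicate 1 or 2 or any 1 EpiLC library. The cause was not tested. Depth limits the EpiLC values of Prdm14 and Nr0b1 most, at 0 to 8 reads per library.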
